A study of Mus musculus with 15 samples.

Results

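The 10 genes described here (Vegfa, Car9, Ndrg1, Egln1, Egln3, Adm, Ddit4, P4ha1, P4ha2 and Pdk1) are targets of the hypoxia-inducible factors (HIFs). They were chosen by name from 16593 named genes on the array, with earlier results of these data known. Their shares set beside those of all tested probes are therefore descriptions, not independent tests. Every probe annotated to one of these symbols was taken, which gave 18 of the 25697 probes on the Illumina mouse BeadChip. After a filter on detection, 15 of the 18 were tested among 11109 tested probes, and each of the 10 genes kept at least 1 tested probe. The study asked what TM4SF1, a tetraspanin-like surface protein, does to gene expression in 2 mouse mammary tumour lines derived from one tumour. 4TO7 cells carried the retroviral vector pBabepuro with a TM4SF1 insert (3 arrays) or pBabepuro alone (3 arrays). 4T1 cells carried the lentiviral vector pLKO with a hairpin against TM4SF1, either shTM4SF1-1 (called hairpin 1 here, 3 arrays) or shTM4SF1-5 (hairpin 5, 3 arrays), or a control hairpin, shscramble (scramble, 3 arrays). All 5 were stably transduced cultures, the labels named no low-oxygen treatment, and whether each was a pool or 1 clone was not given.

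HIFs are transcription factors made of an oxygen-labile alpha subunit (Hif1a, Epas1 or Hif3a) and the stable partner Arnt. In oxygenated cells, prolyl hydroxylases of the Egln family modify the alpha subunit, the Vhl ubiquitin ligase binds it and it is degraded, whereas in low oxygen it accumulates and binds short RCGTG elements near its target genes. Several of those targets, among them Egln1 and Egln3, feed back on the pathway, and in breast tumours the others serve blood supply, acid export, glucose use and collagen assembly.

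Promoters of 9 of the 10 genes were matched in the RefSeq table (build GRCm38.p6), in 11 entries of 300 bases each. The core elements ACGTG and GCGTG were searched on both strands, and the palindrome CACGTG would match ACGTG on both strands. Either element occurred in 9 of the 11 entries (81.8%), against 43.8% of all 32851 promoters of that length. Counted whether or not the other was present, ACGTG occurred in 19.6% and GCGTG in 32.4% of all promoters. The genes were chosen as HIF targets, so this contrast is a description and not an independent test. Vegfa and Pdk1 had more than 1 entry. The 250 bases upstream of the start are shown for Car9 and Adm, which were called in opposite directions between the cell lines, and for Egln3, which differed between the hairpins. Capitals mark the element as it reads on the printed strand, where CACGT and CACGC are elements of the other strand. The Car9 stretch lies at chr4:43506776-43507025 on the plus strand, the Adm stretch at chr7:110627407-110627656 on the plus strand and the Egln3 stretch at chr12:54203875-54204124 on the minus strand.
Car9: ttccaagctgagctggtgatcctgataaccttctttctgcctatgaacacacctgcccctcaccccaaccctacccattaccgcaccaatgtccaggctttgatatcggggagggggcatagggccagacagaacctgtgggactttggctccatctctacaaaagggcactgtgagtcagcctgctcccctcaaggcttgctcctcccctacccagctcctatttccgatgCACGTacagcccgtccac
Adm: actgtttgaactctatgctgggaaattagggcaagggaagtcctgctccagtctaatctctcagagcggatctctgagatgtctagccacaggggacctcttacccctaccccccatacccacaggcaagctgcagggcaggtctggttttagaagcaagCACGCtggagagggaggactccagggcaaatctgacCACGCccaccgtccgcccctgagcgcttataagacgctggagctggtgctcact
Egln3: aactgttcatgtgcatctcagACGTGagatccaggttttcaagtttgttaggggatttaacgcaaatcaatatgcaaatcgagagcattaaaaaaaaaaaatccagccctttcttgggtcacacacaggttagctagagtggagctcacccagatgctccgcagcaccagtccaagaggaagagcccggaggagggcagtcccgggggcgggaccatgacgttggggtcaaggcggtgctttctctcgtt
Car9 held 1 element, whose first base lay at -18 from the start. Adm held 2, at -90 and -54, and Egln3 held 1, at -229. These matches describe letters in a window and were not tested for binding.

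Mean raw intensity ran between 222 and 418.6 over the 15 arrays, the number of detected probes lay between 9436 and 10703, and both ranges overlapped between the groups of every comparison. Arrays of the same group correlated at 0.985 to 0.994 over tested probes. Arrays of other groups of the same line correlated almost as closely, at 0.981 to 0.992, and arrays of the other line at 0.924 to 0.939. The Tm4sf1 probe read 6.73, 6.92 and 7.05 (log2 intensity) with hairpin 1 and 7.03, 6.68 and 5.93 with hairpin 5, against 8.13, 7.98 and 7.99 with scramble; both differences passed the test (log2 -1.13, adjusted p = 5.67e-04, and log2 -1.48, adjusted p = 1.94e-05, limma). In 4TO7 cells it read 8.49, 8.26 and 8.36 on the arrays labelled TM4SF1, against 8.64, 7.81 and 8.25 with the empty vector (log2 0.14, adjusted p = 0.948). The labels do not say whether this probe can read the introduced transcript, so the 4TO7 arrays are called by their label throughout. Each cell type marker was read by 1 probe, the brightest of its gene, so a marker not detected need not be absent. The keratins Krt8 and Krt18 and the mesenchymal filament gene Vim were detected on every array, while the epithelial markers Krt19 and Cldn7 were detected on none and Cdh1 on 1 array, with hairpin 1. All 3 leukocyte markers and all 4 endothelial markers on the array (Ptprc, Lyz2 and Cd3e; Pecam1, Cdh5, Kdr and Tek) were detected on no array.

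**Figure D1:**
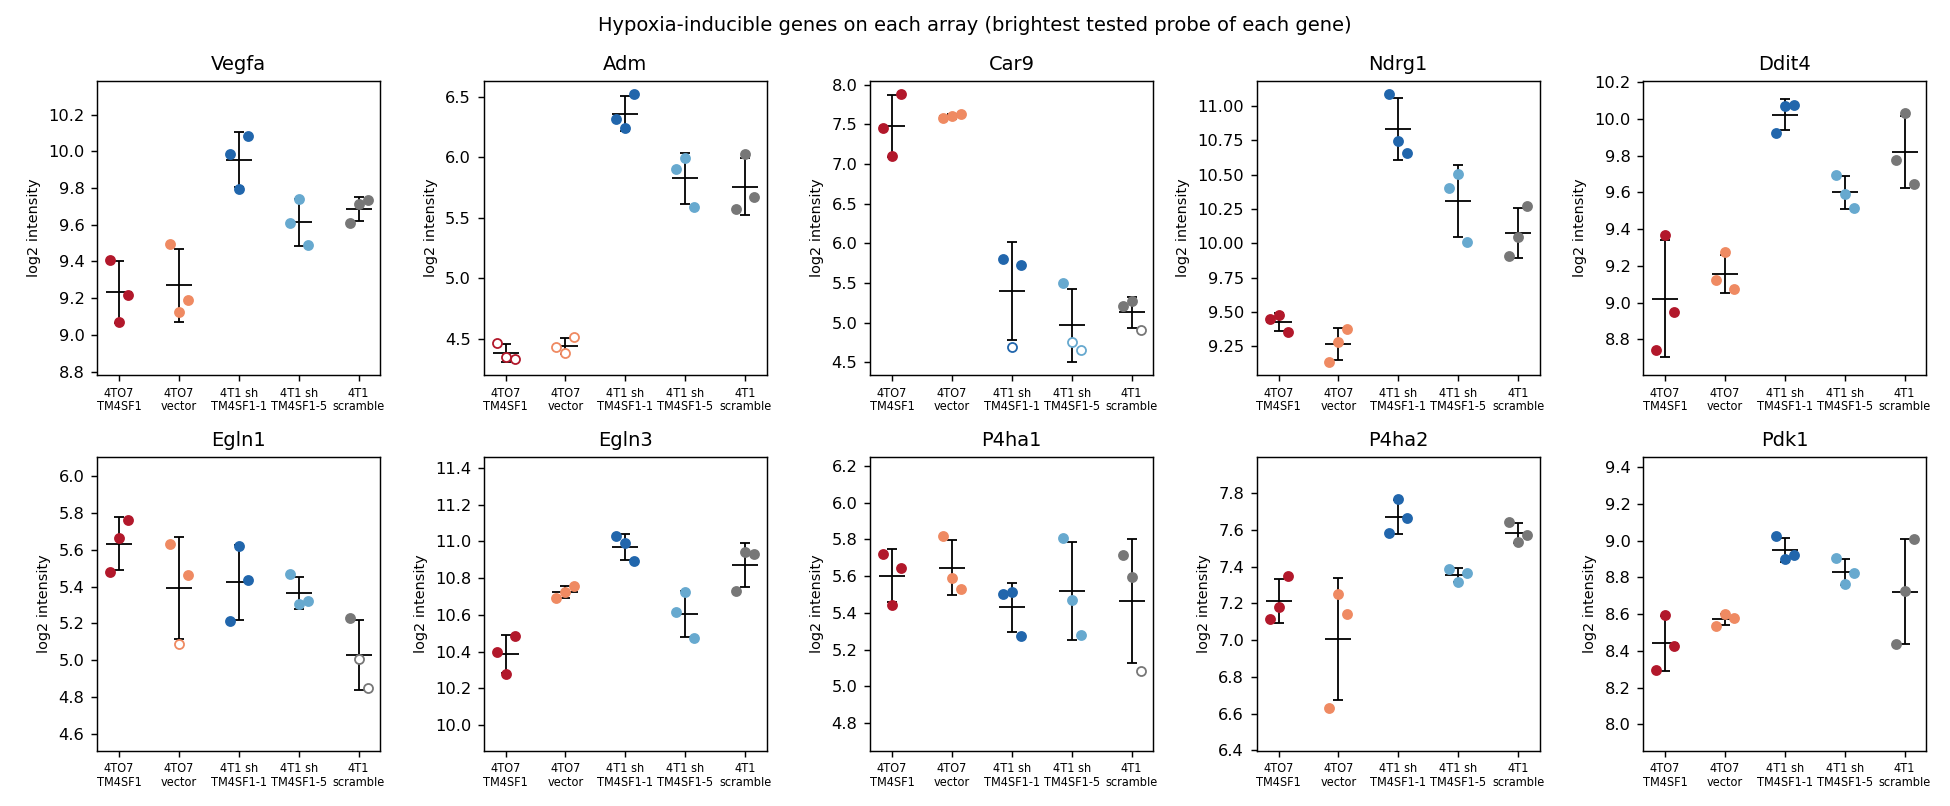
Log2 intensity (vertical axis) of 1 probe for each of the 10 hypoxia-inducible genes in the 5 groups, with each of the 15 arrays as a point, open where the probe was not detected, and a bar for the mean ± SD of 3 arrays; the vertical scales differ between panels. Car9 lies between 7.10 and 7.88 on all 6 4TO7 arrays and at or below 5.80 on all 9 4T1 arrays, and Ndrg1 is highest on the 3 hairpin 1 arrays, between 10.66 and 11.08.

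Detection differed among the genes. Of the 18 probes, 8 were detected on all 15 arrays, 9 on 1 to 14 arrays and 1, another Vegfa probe, on none. Vegfa, Ndrg1, Egln3, Ddit4, P4ha2 and Pdk1 each had a probe detected on every array. The probes left untested were that Vegfa probe, a Car9 probe (ILMN_2730999) detected on 1 array labelled TM4SF1, and an Egln1 probe (ILMN_2617086) detected on 2 arrays. Car9, Adm, Egln1 and P4ha1 were near the detection limit in at least 1 group, and where no array of a group detected a probe its level there is a bound rather than a measurement. The intensities of different probes are not comparable with each other, so levels are set side by side within a probe only. In these bulk cultures, fewer cells that express a gene and less RNA per cell cannot be told apart.

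The first comparison set hairpin 1, with which Tm4sf1 RNA was lowered but still detected, against scramble in 4T1 cells. Ndrg1 was the member that rose, with 1.69-fold and 1.45-fold higher intensity on its 2 probes, and the second Vegfa probe rose 1.34-fold. Over all 11109 tested probes 4.69% were called at an adjusted p under 0.05, 2.33% higher and 2.36% lower. Counted by 1 probe per gene (the brightest), 1 of the 10 genes was called higher and none lower, 4 had an unadjusted p under 0.05 (17% of all tested probes did), and 9 of the 10 differences were positive, with a median of 0.25 on the log2 scale beside -0.00 for all tested probes. The 3 arrays of each group did not overlap for 3 of the 10 genes, against 23.5% of all tested probes. With hairpin 5 no member was called in either direction by limma, 1 had an unadjusted p under 0.05 (14.5% of all tested probes did), the background share was 2.65% (0.936% higher and 1.71% lower), and the median was -0.01 beside 0.01 for all tested probes. The groups did not overlap for 3 of the 10 genes there too, against 19.5% of all tested probes. Both hairpins were compared with the same 3 scramble arrays.

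Ndrg1, a cytoplasmic protein induced by stress and hypoxia and studied as a suppressor of metastasis, gave the clearest values. Its first probe (ILMN_1250195) read 11.08, 10.75 and 10.66 with hairpin 1 and 10.40, 10.51 and 10.01 with hairpin 5, against 9.90, 10.05 and 10.27 with scramble. All 3 hairpin 1 arrays lay above every other 4T1 array, while hairpin 5 and scramble overlapped. The difference was 0.75 ± 0.116 (log2, SE) for hairpin 1 (limma, adjusted p = 1.45e-04) and 0.23 ± 0.116 for hairpin 5 (adjusted p = 0.362), with a 95% interval of -0.01 to 0.47 for hairpin 5. The second probe (ILMN_2646166) read 10.86, 10.77 and 10.71 with hairpin 1 and 10.46, 10.40 and 10.30 with hairpin 5, against 10.14, 10.32 and 10.28 with scramble. It gave the same order of groups, with differences of 0.53 ± 0.084 (adjusted p = 2.06e-04) and 0.14 ± 0.084 (adjusted p = 0.458). The call of the first probe for hairpin 1 was lost under scaling of the arrays to a common median, where no Ndrg1 difference within 4T1 passed.

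Ddit4, an inhibitor of mTORC1 signalling that is also induced by hypoxia, read 9.92, 10.07 and 10.07 with hairpin 1 and 9.69, 9.59 and 9.51 with hairpin 5, against 9.78, 10.03 and 9.65 with scramble. The 2 hairpins lay on opposite sides of scramble and neither was called, at 0.20 ± 0.117 (adjusted p = 0.388) and -0.22 ± 0.117 (adjusted p = 0.404). Both hairpin groups overlapped with the scramble arrays.

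The secreted factors were Vegfa, the endothelial growth factor of tumour vessels, and Adm, whose peptide adrenomedullin dilates vessels. The first Vegfa probe (ILMN_2484527) read 9.99, 9.79 and 10.08 with hairpin 1 and 9.61, 9.74 and 9.49 with hairpin 5, against 9.61, 9.71 and 9.74 with scramble. Its hairpin 1 arrays lay above all scramble arrays, but the difference of 0.27 ± 0.104 did not pass (adjusted p = 0.164). The second Vegfa probe (ILMN_3121255) read 8.05, 8.30 and 8.08 with hairpin 1 and 7.80, 7.75 and 7.68 with hairpin 5, against 7.66, 7.94 and 7.58 with scramble. This probe was called with hairpin 1, at 0.42 ± 0.120 (adjusted p = 0.042), and not with hairpin 5, at 0.02 ± 0.120 (adjusted p = 0.975). The call was lost in 11 of the 19 alternatives, among them each of the leave-one-out fits except the one without scramble replicate 2, with differences between 0.26 and 0.53. Adm read 6.32, 6.24 and 6.52 with hairpin 1 and 5.90, 5.99 and 5.59 with hairpin 5, against 5.58, 6.03 and 5.67 with scramble. No hairpin 1 array of Adm overlapped with scramble, and the difference of 0.60 ± 0.181 stood beside an adjusted p of 0.0539; for hairpin 5 it was 0.07 ± 0.181 (adjusted p = 0.913). In 7 of 19 alternatives the hairpin 1 difference in Adm passed the threshold, one of them the fit without scramble replicate 2, and it ranged between 0.27 and 0.74.

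The prolyl hydroxylases that mark HIF alpha for degradation were not called against scramble with either hairpin. Egln3 read 11.03, 10.99 and 10.89 with hairpin 1 and 10.62, 10.73 and 10.48 with hairpin 5, against 10.73, 10.94 and 10.93 with scramble (probe ILMN_2605819). Hairpin 1 overlapped with scramble, at 0.10 ± 0.081 (adjusted p = 0.573), whereas no hairpin 5 array exceeded the lowest scramble array, at -0.26 ± 0.081 (adjusted p = 0.0819). The second Egln3 probe, which lay between 4.81 and 6.13 over the 15 arrays, gave -0.20 and -0.17 with standard errors of 0.244. Egln1 read 5.21, 5.62 and 5.43 with hairpin 1 and 5.47, 5.30 and 5.32 with hairpin 5, against 5.23, 5.00 and 4.85 with scramble, and it was detected on 1 of the 3 scramble arrays. Its differences were 0.40 ± 0.188 (adjusted p = 0.279) and 0.34 ± 0.188 (adjusted p = 0.428). A second Egln1 probe (ILMN_2617090) gave 0.06 ± 0.231 with hairpin 1 (interval -0.42 to 0.53) and 0.19 ± 0.231 with hairpin 5 (interval -0.29 to 0.66).

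Car9, the membrane carbonic anhydrase that exports acid equivalents and a common marker of tumour hypoxia, was dim in 4T1 cells. It read 5.80, 4.70 and 5.72 with hairpin 1 and 5.50, 4.75 and 4.66 with hairpin 5, against 5.21, 5.27 and 4.91 with scramble, and was detected on 2, 1 and 2 of the 3 arrays in that order of groups. All 3 groups overlapped, with differences of 0.28 ± 0.244 (adjusted p = 0.627) and -0.16 ± 0.244 (adjusted p = 0.832). The second Car9 probe (ILMN_1244145) was not detected on any of the 9 4T1 arrays, so no fold is given for it within 4T1. Pdk1, a kinase that holds pyruvate back from the mitochondria, read 9.03, 8.90 and 8.92 with hairpin 1 and 8.90, 8.76 and 8.83 with hairpin 5, against 8.44, 8.72 and 9.01 with scramble. The scramble arrays of Pdk1 overlapped with those of both hairpins, and its differences of 0.23 ± 0.112 and 0.11 ± 0.112 were not called (adjusted p = 0.304 and 0.731).

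P4ha1 and P4ha2 encode the catalytic subunits of collagen prolyl 4-hydroxylase, which stabilises the collagen helix. P4ha1 lay between 5.28 and 5.51 with hairpin 1 and between 5.28 and 5.81 with hairpin 5, against 5.08 to 5.72 with scramble, with differences of -0.04 and 0.05 and a standard error of 0.193. P4ha2 read 7.58, 7.77 and 7.67 with hairpin 1 and 7.39, 7.31 and 7.37 with hairpin 5, against 7.64, 7.54 and 7.57 with scramble. The hairpin 5 arrays of P4ha2 lay below all scramble arrays, but -0.23 ± 0.136 was not called (adjusted p = 0.472), and hairpin 1 gave 0.09 ± 0.136 (adjusted p = 0.809).

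**Figure D2:**
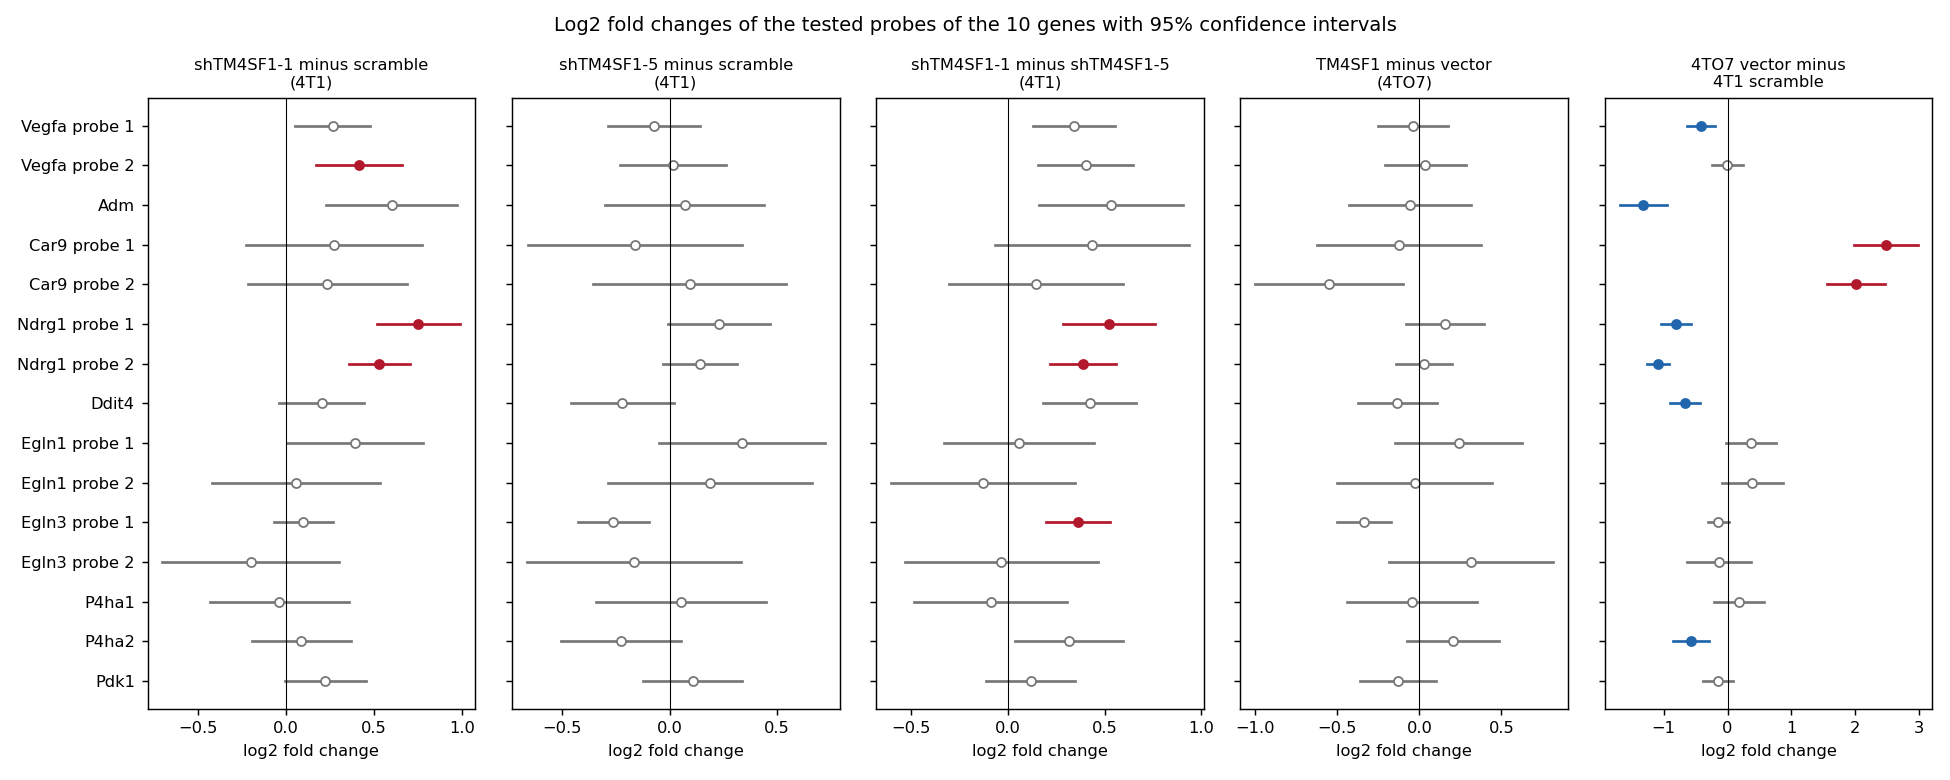
Log2 differences (horizontal axis, first-named minus second-named group of each panel) of the 15 tested probes of the 10 genes in the 5 comparisons, with points for the fitted difference and bars for the 95% interval; filled red points were called higher, filled blue points lower and open grey points were not called. Both Ndrg1 probes are called higher in hairpin 1 against scramble (0.75 and 0.53), none is called for hairpin 5 against scramble or for TM4SF1 in 4TO7, and between the lines the Car9 probes are called higher and Adm, both Ndrg1 probes, Ddit4, P4ha2 and the first Vegfa probe lower. The plotted points of the second Car9 probe and of Adm between the lines are fitted against groups with no detected array, so their size is not a measured fold; the horizontal scales differ between panels.

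The 2 hairpins were also set against each other, which tests whether their effects differ. Ndrg1 and Egln3 were higher with hairpin 1 than with hairpin 5. Of the 10 genes, 2 were called higher and none lower, where 0.963% of all tested probes were called higher and 0.486% lower (1.45% in either direction). The median difference was 0.35 beside -0.00 for all tested probes, 9 of 10 were positive, and the groups did not overlap for 6 of the 10 genes, against 16.3% of all tested probes. Ndrg1 differed by 0.52 ± 0.116 (limma, adjusted p = 0.0152) and 0.39 ± 0.084 (adjusted p = 0.0127) on its 2 probes, and Egln3 by 0.36 ± 0.081 (adjusted p = 0.0152), or 1.44-fold, 1.31-fold and 1.29-fold. The hairpins did not differ in Tm4sf1 itself beyond their spread (0.36 ± 0.193, adjusted p = 0.469, interval -0.04 to 0.75).

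Ddit4 (0.42 ± 0.117, adjusted p = 0.0678), Adm (0.53 ± 0.181, adjusted p = 0.172), Vegfa (0.34 ± 0.104, adjusted p = 0.116, and 0.40 ± 0.120, adjusted p = 0.104) and P4ha2 (0.32 ± 0.136, adjusted p = 0.316) were also separated between the hairpin groups without overlap, and none of them was called. Car9 (0.44 ± 0.244), Egln1 (0.06 ± 0.188), Pdk1 (0.12 ± 0.112) and P4ha1 (-0.09 ± 0.193) overlapped. The count of 2 called genes became 0 when replicate 1 of hairpin 1 or replicate 3 of hairpin 5 was left out, and 1 when replicate 2 of hairpin 1 or replicate 1 of hairpin 5 was. It became 1 when the dimmest array per group was dropped (a choice made after the data were seen), and 0 under median scaling or without a trend of variance with intensity.

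The 4TO7 comparison asked what added TM4SF1 did in cells of the sister line. No member was called on the arrays labelled TM4SF1 against the empty vector by limma, where 0.018% of all tested probes (2 of 11109) were called. By 1 probe per gene, 1 of 10 had an unadjusted p under 0.05 (6.76% of all tested probes did), the median was -0.05 beside -0.00 for all tested probes, and 1 of 10 did not overlap, against 12.3% of all tested probes. That gene was Egln3, at 10.40, 10.28 and 10.49 on the arrays labelled TM4SF1 against 10.69, 10.72 and 10.76 with the vector. Its difference of -0.34 ± 0.081 had an unadjusted p of 2.92e-04 and an adjusted p of 0.266. The second Egln3 probe, dim on all arrays, gave 0.31 ± 0.244 (adjusted p = 0.859), opposite in sign.

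Ndrg1 read 9.45, 9.47 and 9.35 with TM4SF1 and 9.14, 9.28 and 9.38 with the vector on its first probe, which overlap (0.16 ± 0.116, adjusted p = 0.843). Car9 read 7.46, 7.10 and 7.88 with TM4SF1 and 7.57, 7.60 and 7.63 with the vector (-0.12 ± 0.244, adjusted p = 0.969). The TM4SF1 arrays of Car9 spread on both sides of the 3 vector arrays. The second Car9 probe gave -0.55 ± 0.219 with an unadjusted p of 0.0185 and an adjusted p of 0.629. The differences of the other first probes lay between -0.14 (Ddit4) and 0.24 (Egln1), none called. P4ha2 read 7.11, 7.18 and 7.35 with TM4SF1, against 6.63, 7.25 and 7.14 with the vector (0.21 ± 0.136, adjusted p = 0.825), and Pdk1 read 8.30, 8.60 and 8.43, against 8.54, 8.60 and 8.58 with the vector (-0.13 ± 0.112, adjusted p = 0.883). Both genes overlapped between the groups. Ddit4 read 8.74, 9.37 and 8.95 with TM4SF1, against 9.12, 9.27 and 9.07 with the vector, and its TM4SF1 arrays lay on both sides of the vector arrays. Vegfa read 9.41, 9.07 and 9.22 with TM4SF1, against 9.50, 9.12 and 9.19 with the vector on the first probe (-0.04 ± 0.104, interval -0.25 to 0.18). Adm was not detected on any of the 6 arrays, so no fold is given for it.

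Setting the 2 control cultures against each other, 4TO7 with the empty vector against 4T1 with scramble, gave the widest differences among these genes. Car9 was higher in 4TO7 cells, and Adm, Ndrg1, Ddit4, P4ha2 and the first Vegfa probe were lower. The calls of Ddit4, P4ha2 and Vegfa were lost under median scaling, which left 3 called genes. By 1 probe per gene 1 was called higher and 5 lower, beside 45% of all tested probes called (23% higher and 22% lower), so that calls were frequent in the whole table. The groups did not overlap for 6 of the 10 genes, against 54.6% of all tested probes, and the median was -0.28 beside 0.02. The cell line and the vector (pBabepuro or pLKO) change together here and cannot be told apart. Cell type markers differed between the lines as well. The summed linear intensity of the 5 epithelial markers on the array was 3238 to 3754 in 4TO7 vector arrays, against 8133 to 8586 in 4T1 scramble arrays; only Krt8 and Krt18 of these markers were detected in these groups. Of the 3 mesenchymal markers only Vim was detected, and the sum, set by Vim, was 3145 to 3505 in vector arrays, against 5486 to 6440 in scramble arrays. The part of these markers in the result was not tested.

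Car9 read 7.57, 7.60 and 7.63 in 4TO7 vector arrays, against 5.21, 5.27 and 4.91 in 4T1 scramble arrays, without overlap. The fitted difference was 2.47 ± 0.244 (limma, adjusted p = 2.87e-09), but the probe was detected on only 2 of the 3 scramble arrays, so its level there was at the detection limit and the fold is not firmly measured. Its second probe read 6.36, 6.11 and 6.68 in 4TO7 and was not detected on any scramble array, so Car9 was at least 2.23-fold higher by this probe (adjusted p = 1.82e-08); such a bound sets the brighter group's mean against the lowest signal among detected probes of the dim arrays. Adm went the other way, not detected on the 3 vector arrays against 5.58, 6.03 and 5.67 with scramble, and was at least 1.41-fold lower in 4TO7 (adjusted p = 1.00e-06). These calls of Car9 and Adm passed in every alternative in which they were tested, and the first Car9 probe ranged between 1.25 and 2.56.

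Ndrg1 averaged 9.27 ± 0.12 in 4TO7 vector arrays and 10.07 ± 0.184 in scramble arrays (SD, n = 3 each, first probe), a difference of -0.81 ± 0.116 (adjusted p = 1.89e-06), and its second probe gave -1.08 ± 0.084 (adjusted p = 2.66e-11). Ddit4 read 9.12, 9.27 and 9.07 in 4TO7 vector arrays, against 9.78, 10.03 and 9.65 with scramble (-0.66 ± 0.117, adjusted p = 3.69e-05). P4ha2 read 6.63, 7.25 and 7.14 in vector arrays, against 7.64, 7.54 and 7.57 (-0.58 ± 0.136, adjusted p = 0.00107). The lowest of these readings, 6.63, rested on 11 beads, the fewest of any member probe and array, so the size is uncertain. These 3 genes were separated between the lines without overlap. The first Vegfa probe read 9.50, 9.12 and 9.19 in vector arrays, against 9.61, 9.71 and 9.74 (-0.42 ± 0.104, adjusted p = 0.0018), while the second Vegfa probe showed no called difference (-0.00 ± 0.120, adjusted p = 0.998, interval -0.25 to 0.25). Egln1 (0.37 ± 0.188), Egln3 (-0.14 ± 0.081), P4ha1 (0.18 ± 0.193) and Pdk1 (-0.15 ± 0.112) were not called.

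**Figure D3:**
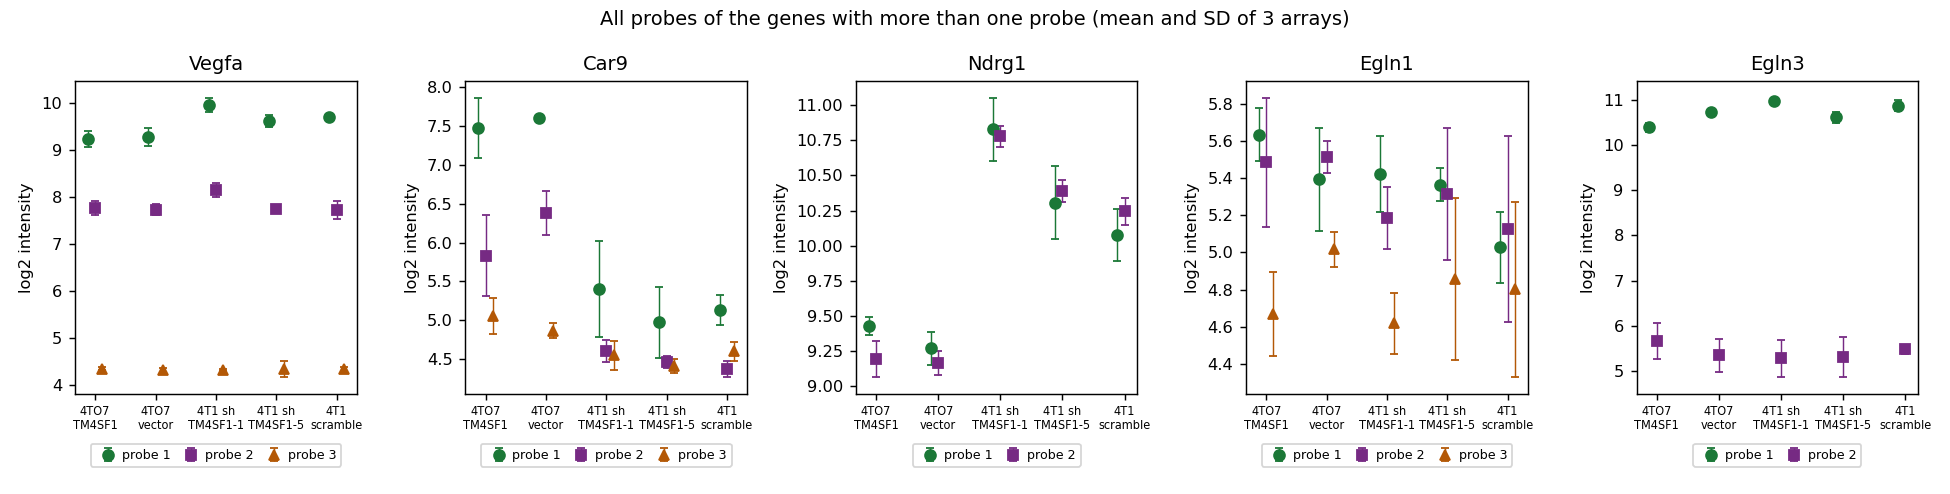
Mean log2 intensity (vertical axis) with SD of 3 arrays in the 5 groups, for every probe of the 5 genes with more than 1 probe; probe 1, probe 2 and probe 3 are coloured separately and joined by no line, and the vertical scales differ between panels. The 2 Ndrg1 probes share one order of groups, whereas Vegfa and Egln3 probes differ in theirs, and Car9 is high in both 4TO7 groups on both tested probes.

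In the order of all 5 groups, Ndrg1 was highest with hairpin 1, which lay apart from hairpin 5; hairpin 5 overlapped with scramble, scramble lay apart from the TM4SF1 arrays, and these overlapped with the vector arrays (first probe). For Car9 the vector and TM4SF1 arrays of 4TO7 overlapped and lay apart from hairpin 1, and the 3 4T1 groups overlapped. Adm followed the order of Ndrg1 within 4T1, with hairpin 1 (6.36 ± 0.144, SD, n = 3) apart from hairpin 5 (5.83 ± 0.209), hairpin 5 overlapping with scramble (5.76 ± 0.237), and both 4TO7 groups below detection. For Vegfa (first probe), hairpin 1 was apart from scramble (9.95 ± 0.149, against 9.69 ± 0.067), and each later neighbour in the order scramble, hairpin 5, vector, TM4SF1 overlapped with the next. Ddit4 had hairpin 1, scramble and hairpin 5 overlapping in that order and hairpin 5 (9.60 ± 0.0892) apart from the vector arrays (9.16). P4ha2 had hairpin 1 and scramble overlapping, hairpin 5 (7.36) apart from and below scramble (7.58), and hairpin 5 overlapping with the TM4SF1 arrays and these with the vector arrays. For Egln3, Pdk1 and P4ha1 every neighbour in the order overlapped, so that no step between adjacent groups exceeded the spread. For Egln1, hairpin 5 (5.36) lay apart from scramble, the lowest group (5.03 ± 0.191), which was detected on 1 of 3 arrays. By root-mean-square difference of the centred 5 group means over 7461 genes, the genes most like Ndrg1 were Zfand2a (0.0435), Lrrc14b (0.0643) and Mmp10 (0.107), and those most like Egln3 were Lrsam1 (0.0371), Son (0.0553) and Igf1r (0.0562). A search over so many genes always returns near matches, and shared regulation was not tested.

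Other genes of the pathway gave a frame for these values, in lists that were also chosen with earlier results of these data known. Of 18 listed genes that make, degrade or assist HIF (the machinery), 14 were tested, each by its brightest tested probe. In the 4T1 and the 4TO7 TM4SF1 comparisons none of the 14 was called by limma, with 3 (hairpin 1), 0 (hairpin 5), 1 (hairpin 1 against hairpin 5) and 1 (TM4SF1 in 4TO7) at an unadjusted p under 0.05, where 17%, 14.5%, 12.5% and 6.76% of all tested probes were, in the same order of comparisons. The largest of the uncalled were Siah2 with hairpin 1 (0.42, adjusted p = 0.145), Hif3a with hairpin 5 (-0.34, adjusted p = 0.534), Siah2 between the hairpins (0.30, adjusted p = 0.455) and Hif3a with TM4SF1 (-0.44, adjusted p = 0.764). Hif3a was detected on 1 of 3 arrays with hairpin 5, 2 of 3 with scramble and 1 of 3 labelled TM4SF1. The sizes of its differences are therefore uncertain. Between the control cultures 5 were higher and 2 lower in 4TO7, with a median of 0.23, where 23% of all tested probes were called higher and 22% lower. Siah2, which degrades Egln proteins, was higher (log2 0.98, SE 0.159, adjusted p = 1.11e-05), Vhl was higher (log2 0.59, adjusted p = 0.00509), and Hif1a, the main alpha subunit, was lower (log2 -0.45, adjusted p = 0.0142). Epas1, another alpha subunit, was not detected in scramble arrays and was at least 1.13-fold higher in 4TO7 (adjusted p = 7.97e-05), detected on 2 of 3 vector arrays.

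Of 34 further HIF targets, 23 were tested, each by its brightest tested probe. Further tested probes of Tfrc (hairpin 1 against scramble, 0.47) and Pfkp (control cultures, -1.17) were called in the same direction as the brightest. With hairpin 1 against scramble 7 were called higher and none lower, with a median of 0.21, beside 2.33% of all tested probes called higher. The 7 were Ier3 (an early stress-response gene, 0.65 ± 0.096, adjusted p = 9.62e-05), Plod2 (a lysyl hydroxylase of collagen, 0.48 ± 0.091, adjusted p = 0.00161), Tfrc (the transferrin receptor, 0.43 ± 0.085, adjusted p = 0.00259), Bnip3l (a mitophagy receptor, 0.37 ± 0.074, adjusted p = 0.00315), Ldha (lactate dehydrogenase, 0.30), Slc2a1 (a glucose transporter, 0.28) and Kdm3a (a histone demethylase, 0.28); the last 3 are named because they complete the count, after their values were seen. With hairpin 5 none was called by limma, and 5 had an unadjusted p under 0.05, where 14.5% of all tested probes did; the largest difference was that of Car12, another membrane carbonic anhydrase (-0.41, adjusted p = 0.293). With hairpin 1 against hairpin 5, Plod2 (0.69 ± 0.091, adjusted p = 4.68e-05), Ier3 (0.51 ± 0.096, adjusted p = 0.0042) and Bnip3l (0.32 ± 0.074, adjusted p = 0.0227) were called higher, where 0.963% of all tested probes were. For TM4SF1 in 4TO7 none was called by limma and 0 had an unadjusted p under 0.05 (6.76% of all tested probes did), and Hmox1, a heme-degrading enzyme, differed most (-0.49, adjusted p = 0.773). Hmox1 was detected on 1 of the 3 TM4SF1 arrays and 2 of the 3 vector arrays, so this size is uncertain. Between the control cultures 12 were higher and 5 lower in 4TO7, with a median of 0.34, where 23% of all tested probes were called higher and 22% lower; Angptl4, a regulator of lipoprotein lipase, was not detected with scramble and at least 3.39-fold higher in 4TO7 (adjusted p = 5.3e-10). Ier3 was higher (log2 1.06, adjusted p = 5.12e-10), and Pfkp, a phosphofructokinase, was lower (log2 -1.40, adjusted p = 8.53e-11). Car12 was called lower too (adjusted p = 5.21e-07); it was detected on 1 of the 3 vector arrays, so no size is given. The count of 7 became 0 under median scaling, 4 without a variance trend and 4 when the dimmest array per group was dropped. Leaving out 1 array gave 5 to 6. For hairpin 1 against hairpin 5 the count of 3 was 2 to 4 leaving out 1 array and 0 to 4 in the other alternatives. Between the control cultures the count of 17 targets ranged from 9 to 18 over the alternatives. That of the 7 machinery genes ranged from 2 to 8.

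**Figure D4:**
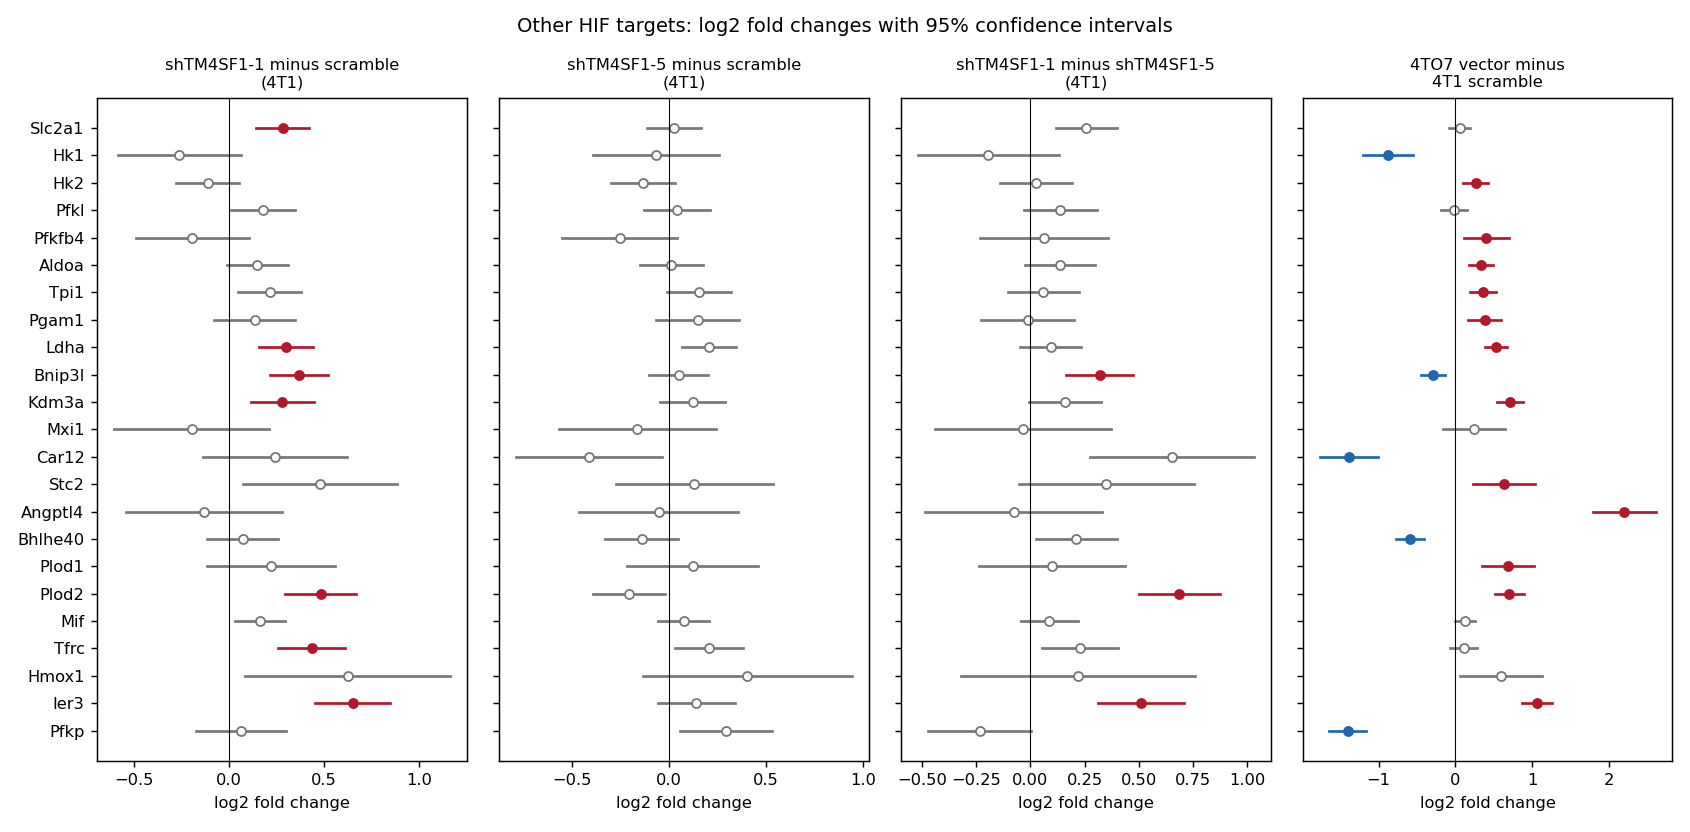
Log2 differences (horizontal axis) with 95% intervals (bars) of 23 further HIF target genes, each read by its brightest tested probe. Panels show 4 of the 5 comparisons (both hairpins against scramble, hairpin 1 against hairpin 5, and the control cultures). Genes are coloured red where called higher, blue where called lower and open grey where not called. With hairpin 1 against scramble 7 of 23 are called higher and none lower, with Ier3 at 0.65 at the top of the range.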

How the data were processed

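Total RNA for the 15 arrays was hybridised as biotinylated cRNA to Illumina BeadChips, per the labels' protocols. For each probe the authors deposited the average bead intensity, the detection p-value, the bead number and the bead standard error. Per the file headers, these came without normalization or background subtraction. GenomeStudio is named in the submitters' processing notes (no version or build given). The deposited p-value and intensity were used; bead numbers per member probe and array ran from 11 to 59 (median 36). The authors' normalized table, in linear intensity with medians of 8.34 to 8.45 and values down to -18.46, served as an alternative; its processing is otherwise not given in the sources.

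Background was corrected by normexp with limma 3.58.1 (R 4.3.3), the control distribution taken from the detection p-values (offset 16), followed by quantile normalization and log2. A probe was tested if 3 or more arrays gave it a detection p below 0.01. A group-means model over all 15 arrays (10 residual degrees of freedom) with a variance trend was fitted, p-values were adjusted by Benjamini-Hochberg over all tested probes of a comparison, and calls were made at 0.05. Only the model fit was tested on simulated data, made from normalized intensities with independent noise added. Background correction and normalization were not tested in this way. The number of arrays limits the precision (median standard error 0.141). Replicates are called biological, but separate cultures are not stated, so p-values measure the spread between these arrays. Probes were named from the platform annotation: 23978 had 1 symbol and 1719 had none, and 23962 matched a RefSeq gene.

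All probes of the 10 genes are named, the brightest tested probe standing for the gene. From each of the other lists, up to 4 called genes with the largest change per comparison are named, or the largest where none was called. Members and lists were chosen with earlier results of these data known. Same-numbered arrays did not deviate together (correlations between -0.144 and 0.0909), so the numbers were not taken as pairs. Alternatives in background correction, normalization, filter, model and arrays were run.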

Additional observations from a re-analysis of the deposited data

Results flagged for a closer look

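Both hairpins were set against the same scramble arrays, and the difference of their effects, which equals hairpin 1 minus hairpin 5, was past the threshold in limma for 3 probes of 2 genes. For Ndrg1 the effects differed by 0.52 (log2, probe ILMN_1250195, adjusted p = 0.0152) and 0.39 (probe ILMN_2646166, adjusted p = 0.0127), and all 3 hairpin 1 arrays were above all 3 hairpin 5 arrays on both probes. For Egln3 they differed by 0.36 (probe ILMN_2605819, adjusted p = 0.0152), again with all 3 hairpin 1 arrays above all 3 hairpin 5 arrays, while the second Egln3 probe gave -0.03 (adjusted p = 0.973). Groups of 3 arrays were not tested for single arrays far from the others.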

How the results depend on the processing

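Of 14 called differences of member probes, 5 were past the threshold in every alternative in which they were tested (both Car9 probes, both Ndrg1 probes and Adm between the control cultures), and no called difference changed sign; of 61 uncalled ones, 28 changed sign in at least 1 alternative. The count of called genes for hairpin 1 against scramble, 1 in the fit described, was 2 without background correction, with an offset of 50, with the brightest probe of each symbol, with the compared arrays only and without a variance trend, 4 with array weights and 0 with median scaling; leaving out 1 array gave 1 to 2. For hairpin 1 against hairpin 5 the count of 2 was 0 with median scaling, 0 without a variance trend and 1 when the dimmest array per group was dropped (an alternative added once the data were seen), and 0 to 2 leaving out 1 array. Between the control cultures the count of 6 was 3 with median scaling and 6 to 7 leaving out 1 array. It was 0 in all alternatives for hairpin 5 against scramble and for TM4SF1 in 4TO7. The cause of these changes was not tested.

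With the replicate number as a block, the counts were 1 (hairpin 1 against scramble), 0 (hairpin 5), 3 (hairpin 1 against hairpin 5), 0 (TM4SF1 in 4TO7) and 6 (control cultures). Median scaling put the median difference of all probes at -0.12 (hairpin 1 against scramble), -0.17 (TM4SF1 in 4TO7) and 0.10 (control cultures, 0.02 in the fit described), and lowered the calls over all probes from 521 to 18, of which 38.9% were higher in place of 49.7%, for hairpin 1 against scramble. Over all probes, the hairpin 5 count of 294 became 18 with median scaling, that of hairpin 1 against hairpin 5 went to 3 in place of 161 (0% higher in place of 66.5%), and that between the control cultures to 1919 in place of 4999. Without the dimmest arrays the counts were 177, 120 and 45 for the 3 comparisons within 4T1. A chip block was not run, because the file headers name no chip. Probes near the detection limit (Car9, Adm, Egln1 and P4ha1) carried standard errors of 0.181 to 0.244, against 0.081 to 0.136 for the first probes of the other genes.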
